A study of Mus musculus with 7 samples.

Results

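The enzymes and transporters that carry glucose to pyruvate, lactate, acetyl-CoA or pentose phosphates were followed through the cell types of mouse mammary tumors, as 34 named genes chosen by symbol. The deposited matrices held a UMI (unique molecular identifier, the tag that marks each captured mRNA molecule) for 29774 genes in the cell classes compared. Of these, 5977 genes passed the filter on low counts, among them 22 of the 34 members. The other 12 members, *Slc2a3*, *Pfkm*, *Pgam1*, *Eno2*, *Eno3*, *Slc16a3*, *Pfkfb2*, *Pfkfb4*, *Pdk1*, *Pdk2*, *Pdk3* and *Pdk4*, had too few UMIs for a test and are given as counts and levels.

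Drop-seq, a droplet method that reads the 3′ ends of mRNA from single cells, was run on primary tumors of 7 mice, 1 library per mouse. All 7 carried the MMTV-PyMT transgene, in which a mammary tumor virus promoter drives the polyoma middle T oncogene in mammary epithelium, together with floxed *HK2* alleles (HK2 f/f). Their genotype label is wild type, no Cre is named for them, and the tumors were collected 3 months after they had become palpable. By the study's methods, tamoxifen was injected for 7 days once a tumor was palpable in floxed mice with and without an inducible ubiquitous Cre. Ages are not given in the labels. Libraries of mice lacking HK2 were not used here, so the comparisons below are between cell types of the same control tumors. The titles form a CB series (mice 1 to 4) and a WT series (mice 5, 7 and 8), and what separates them is not stated.

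Glycolysis takes up glucose through GLUT transporters, traps it as glucose 6-phosphate, splits the sugar phosphate with aldolase and recovers ATP in its lower reactions, ending with pyruvate kinase. Pyruvate is then reduced to lactate by lactate dehydrogenase and exported by monocarboxylate transporters, or enters mitochondria through the pyruvate dehydrogenase complex, which its kinases switch off. The pentose phosphate pathway branches off at glucose 6-phosphate and yields NADPH and ribose. Several steps are run by alternative isozymes from different genes that are used by different tissues, and many of the genes are induced by hypoxia and the oncogenic signals of tumors.

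Barcodes with 200 to 6000 genes were kept, 15047 of 37000, at 1133 to 4780 cells and 962677 to 4471473 UMIs per mouse. Marker genes placed 8682 of them in 7 classes, tumor-like (3367 cells), hormone-sensing luminal-like (639), myoepithelial-like (91), fibroblast-like (1034), endothelial-like (99), macrophage-like (1967) and T/NK-like (1485), named below without the suffix. The other 6365 cells were left out, and 5 barcodes occurred in more than 1 matrix. The PyMT transcript, a UMI of which the marker rule required of each tumor cell, ranged from 1448 to 6376 CPM (UMIs of the gene scaled to 1000000 UMIs of the class in that mouse) in tumor cells, from 145 to 1198 CPM in hormone-sensing cells, from 79.0 to 3149 CPM in myoepithelial cells and from 0 to 155 CPM in T/NK cells. The 14 tumor markers summed to 29620 to 40615 CPM in hormone-sensing cells against 49384 to 77225 CPM in tumor cells, to 8372 to 16917 CPM in myoepithelial cells, and to at most 4463 CPM in fibroblasts or macrophages. The 12 fibroblast markers summed to 1200 to 4502 CPM in myoepithelial cells, to 298 to 1919 CPM in hormone-sensing cells and to 59.9 to 465 CPM in tumor cells. Hormone-sensing cells, where no limit was set on tumor markers, and myoepithelial cells thus carried markers of other classes, whose part in their differences from tumor cells, those of *Gpi1*, *Pfkl* and *Aldoc* in myoepithelial cells included, was not tested. The tumor list includes luminal keratins (*Krt8*, *Krt18*), so its sum is no measure of foreign RNA in other epithelial classes. Hormone-sensing cells had a median of 1982 UMIs per cell against 952 in tumor cells, and 357 of the 639 came from mouse 4. UMIs were summed per mouse and class, in all 7 mice for 5 classes, in 4 mice (1, 4, 5 and 8) for myoepithelial cells and in 3 (4, 5 and 8) for endothelial cells. The T/NK sum of mouse 8 held only 11 cells and 5791 UMIs, and its hormone-sensing sum 16 cells and 28145 UMIs. Myoepithelial sums held 16662 to 31034 UMIs and endothelial sums 23322 to 27487 UMIs, so levels in all of these rest on few UMIs. A level in CPM is a share of the RNA of its class, so a lower level does not say whether a cell held fewer molecules.

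Fibroblasts, T/NK cells and endothelial cells had lower levels of many members than the tumor cells of the same mice. Macrophages and hormone-sensing cells had calls in both directions. Of the 22 members, those called higher in these 2 classes were near the share of all genes, so nothing is read from their number. Calls are adjusted p-values under 0.05 from the quasi-likelihood test of edgeR, fitted with mouse as a blocking factor and adjusted over all 5977 genes. Fold changes come from this fit and include its composition scaling, whereas levels in CPM are unscaled. Ratios of the printed levels can therefore differ from the fold changes beside them, as for *Pkm* in fibroblasts. In fibroblasts 13 members were lower and 1 was higher, where 46.0% of all genes tested were called, 17.3% lower and 28.7% higher. T/NK cells had 15 lower and 1 higher, with 54.0% of all genes called, 32.3% lower and 21.7% higher. In macrophages 9 were lower and 6 higher, with 51.6% of all genes called, 26.9% lower and 24.6% higher. In hormone-sensing cells 6 were lower and 3 higher, with 25.4% of all genes called, 11.9% lower and 13.5% higher. The shallow endothelial sums gave 7 lower and 0 higher (17.6% of all genes called, 6.24% lower and 11.3% higher), and the myoepithelial sums 1 lower and 2 higher (15.4% of all genes called, 4.67% lower and 10.7% higher). The endothelial count fell to 3 when mouse 4, 5, 7 or 8 was left out.

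The split depended on the scaling in 4 comparisons, counting the T/NK cells against macrophages described further on. Without the composition scaling 10 members were lower and 2 higher in macrophages, 1 and 1 in myoepithelial cells, and 6 and 3 in T/NK cells against macrophages. The macrophage differences not called then were those of *Gpi1*, *Pgk1*, *G6pdx* and *Pgd*, at 0.32, 0.51, 0.54 and 0.35 (adjusted p = 0.111, 0.0625, 0.126 and 0.0973). With DESeq2, 7 were lower and 2 higher in hormone-sensing cells, and 4 lower and 0 higher in myoepithelial cells, where a normalization over all genes gave 5 lower and 0 higher. Counts also moved where the direction held. Fibroblasts had 18 members lower without the composition scaling, and 17 with DESeq2 or over all genes. All genes called lower there rose from 1037 to 1791, 1447 and 1319. Endothelial cells had 9 lower with DESeq2 and 10 over all genes, where all genes called lower rose from 373 to 614 and 743.

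The median log2 fold change over the 22 members was -1.04 in fibroblasts, beside 0.11 over all genes tested. It was -0.93 in T/NK cells beside -0.22, -1.04 in endothelial cells beside -0.09, -0.24 in macrophages beside -0.12, -0.24 in hormone-sensing cells beside 0.02 and 0.18 in myoepithelial cells beside 0.02. In endothelial cells, *Pfkl* and *Slc16a1* had no UMI at all. With *Pfkl* at its lower bound and *Slc16a1*, for which no bound could be set, left out, that median was -1.01 over 21 members. The 6 comparisons share the tumor sums, so they are not independent of each other. All 22 tested members differed among the 7 classes in an F test of the same fit, which also called 82.6% of all genes.

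**Figure D1:**
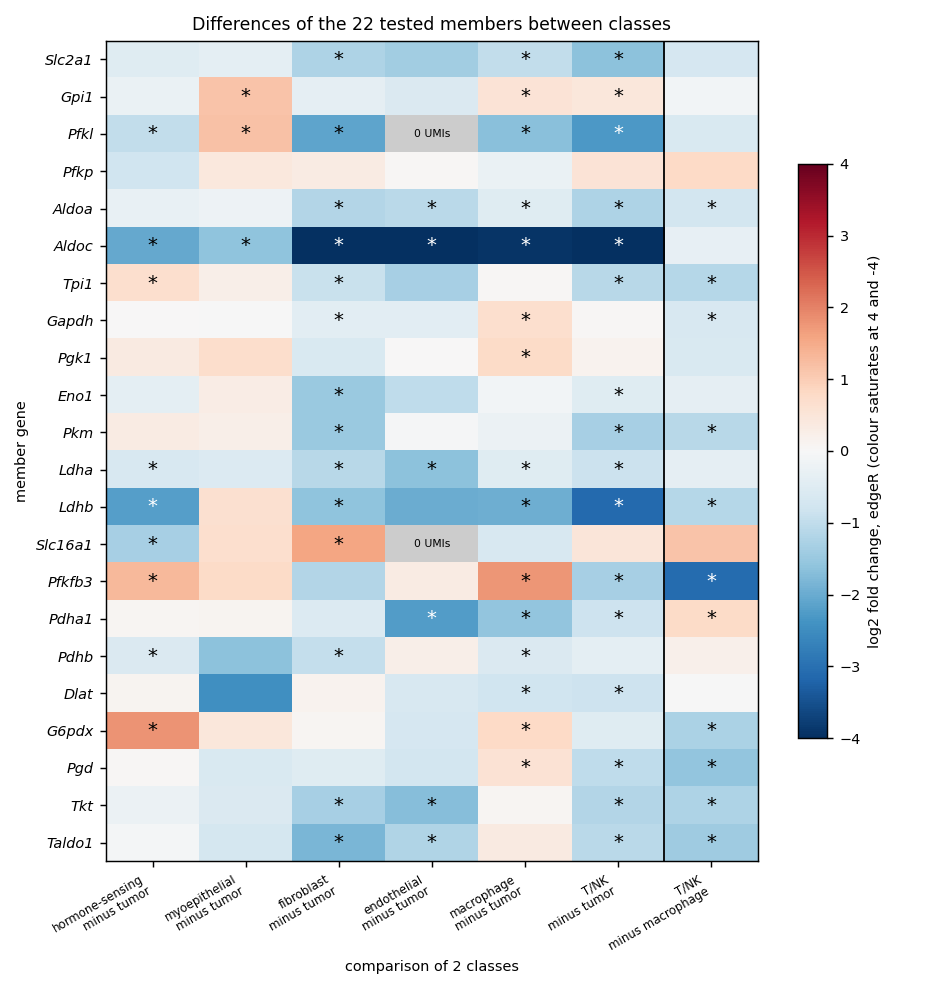
Difference of each tested member from the tumor cells of the same mice (log2 fold change, colour, saturating at 4 in either direction) by class, with asterisks at an adjusted p under 0.05 and grey cells where a class had no UMI. The last column, right of the line, instead shows T/NK cells against macrophages. Blue cells prevail in the fibroblast and T/NK columns, *Aldoc* is lower in all 6 classes, and *Pfkfb3* and *G6pdx* are higher in hormone-sensing cells and macrophages.

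Glucose entry was represented by *Slc2a1*, which encodes GLUT1, the widespread basal glucose transporter. Its level per mouse ranged from 49.1 over a median of 82.6 to 165 CPM in tumor cells, from 26.3 over 38.1 to 44.0 CPM in macrophages and from 0 over 23.2 to 39.4 CPM in T/NK cells. Every T/NK and macrophage sum lay below the lowest tumor sum. *Slc2a1* was lower than in tumor cells by a log2 fold change of -1.65 ± 0.34 (SE; adjusted p = 4.1e-05) in T/NK cells, -0.98 ± 0.27 (adjusted p = 0.0018) in macrophages and -1.24 ± 0.33 (adjusted p = 0.0013) in fibroblasts, in 7 of 7 mice each. In the CB series alone the macrophage and fibroblast differences were -0.71 and -1.01 and did not pass the test (adjusted p = 0.149 and 0.136). *Slc2a3*, which encodes the high-affinity GLUT3 of neurons and lymphocytes, had 25 UMIs in all classes, 13 of them in T/NK cells.

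*Gpi1* encodes glucose-6-phosphate isomerase. Its levels in myoepithelial cells of mice 1, 4, 5 and 8 were 276, 258, 360 and 385 CPM, against 112, 176, 196 and 180 CPM in their tumor cells, with no overlap between the classes. The myoepithelial levels rest on few UMIs, in sums of 16662 to 31034 UMIs. The difference was 1.13 ± 0.31 on the log2 scale (adjusted p = 0.0061), but it did not pass under DESeq2 (0.61, adjusted p = 0.138) or with a normalization over all genes (0.70, adjusted p = 0.106). In T/NK cells *Gpi1* was the 1 member called higher, by 0.45 ± 0.19 (adjusted p = 0.039), with 194 to 863 CPM against 97.1 to 196 CPM in tumor cells, levels that met at their edges. That call was lost without mouse 4 (adjusted p = 0.0677) or mouse 7 (0.0811). In macrophages *Gpi1* was higher by 0.56 ± 0.17 (adjusted p = 0.0053), with 0.67 in the CB series and 0.50 in the WT series, where it did not pass (adjusted p = 0.207). Stretches that *Gpi1* shares with other genes made up 27.4% of the 50-base words near its 3′ ends, so its counts may include molecules of other genes.

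Phosphofructokinase, which commits the sugar to glycolysis, is made by *Pfkl* (liver type), *Pfkm* (muscle type) and *Pfkp* (platelet type). The liver-type gene *Pfkl* ranged from 52.4 over 94.1 to 130 CPM in tumor cells, but only from 0 over 15.7 to 25.1 CPM in fibroblasts and from 11.8 over 22.4 to 33.1 CPM in macrophages, below every tumor sum. The T/NK sums ranged from 0 over 16.3 to 65.7 CPM and overlapped them in mouse 3 alone. *Pfkl* differed from tumor cells by -2.10 ± 0.35 in fibroblasts (adjusted p = 1.2e-06), by -1.68 ± 0.28 in macrophages (adjusted p = 9.6e-07) and by -2.29 ± 0.33 in T/NK cells (adjusted p = 5.8e-08). These 3 differences were also called in each title series alone. In hormone-sensing cells *Pfkl* ranged from 0 over 48.2 to 102.5 CPM and was lower by -0.97 ± 0.24 (adjusted p = 0.0011) in 7 of 7 mice, with -0.87 in the CB series and -1.21 in the WT series, where it did not pass (adjusted p = 0.173).

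Myoepithelial *Pfkl* stood at 316, 129, 120 and 210 CPM in mice 1, 4, 5 and 8, above the tumor cells of the same mice at 104, 94.1, 114 and 52.4 CPM. The myoepithelial levels rest on 20 UMIs in all. The difference of 1.16 ± 0.41 (adjusted p = 0.046) was not called without mouse 1, 4 or 8 (adjusted p from 0.0668 to 0.246), nor under any of the other 3 scalings. In the endothelial sums *Pfkl* had 0 UMIs in 74345, which by a floor of 3 counts over the class puts it at least 2.43-fold below tumor cells (adjusted p = 0.011, and 0.0650 to 0.0745 without mouse 4, 5 or 8). *Pfkp*, by contrast, passed no comparison: its level was 38.0 to 127 CPM in tumor cells, 18.0 to 116 CPM in fibroblasts and 39.4 to 518 CPM in T/NK cells.

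The aldolase genes differed between the classes. *Aldoc*, on chromosome 11 (GRCm38, 78322968 to 78327781, plus strand), encodes aldolase C, the isozyme best known from brain. In tumor cells of mice 1, 2, 3, 4, 5, 7 and 8 it stood at 793, 494, 818, 765, 937, 553 and 1041 CPM. In hormone-sensing cells it ranged from 121 over 195 to 319.8 CPM, in macrophages from 25.4 over 41.3 to 82.9 CPM, in fibroblasts from 0 over 22 to 56.2 CPM and in T/NK cells from 0 over 52.1 to 131 CPM. Each of these levels lay below the lowest tumor level. The differences were -2.03 ± 0.25 in hormone-sensing cells, -3.93 ± 0.30 in macrophages, -4.26 ± 0.34 in T/NK cells and -4.76 ± 0.36 in fibroblasts, with adjusted p-values from 6.7e-17 to 1.9e-09, and all 4 were called under every alternative setting.

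Barcodes with fewer than 200 genes, taken as a reference for RNA outside intact cells although they may also hold shallow or damaged cells, carried *Aldoc* at 98.1 to 411 CPM (mean 235 CPM over 7 mice). The macrophage and fibroblast levels were below that range and the hormone-sensing levels inside it, whereas the tumor levels were above it. The part of free RNA in the *Aldoc* of these classes was not tested. In myoepithelial cells *Aldoc* was at 0, 516, 120 and 350 CPM in mice 1, 4, 5 and 8 (-1.61 ± 0.41, adjusted p = 0.0031, but 0.0514 without mouse 1). In endothelial cells of mice 4, 5 and 8 it was at 127, 0 and 36.4 CPM, from 4 UMIs in all (-4.03 ± 0.67, adjusted p = 4.7e-06). The endothelial difference was not called in the CB series, where only mouse 4 contributed (adjusted p = 0.0771).

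*Aldoa*, the ubiquitous and muscle isozyme, ranged from 533 over 748 to 1289 CPM in tumor cells and was 1.17 ± 0.21 log2 units lower in fibroblasts (adjusted p = 4.1e-06) and 1.23 ± 0.21 lower in T/NK cells (adjusted p = 2.4e-06). Its levels of 126 to 386 CPM in fibroblasts lay below all tumor levels. In hormone-sensing cells it stood at 391 to 858 CPM and did not pass the test (-0.30 ± 0.19, adjusted p = 0.26), while *Aldoc* of the same cells did. The macrophage difference of -0.49 was lost without mouse 4, 7 or 8 (adjusted p = 0.093, 0.0538 and 0.385).

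**Figure D2:**
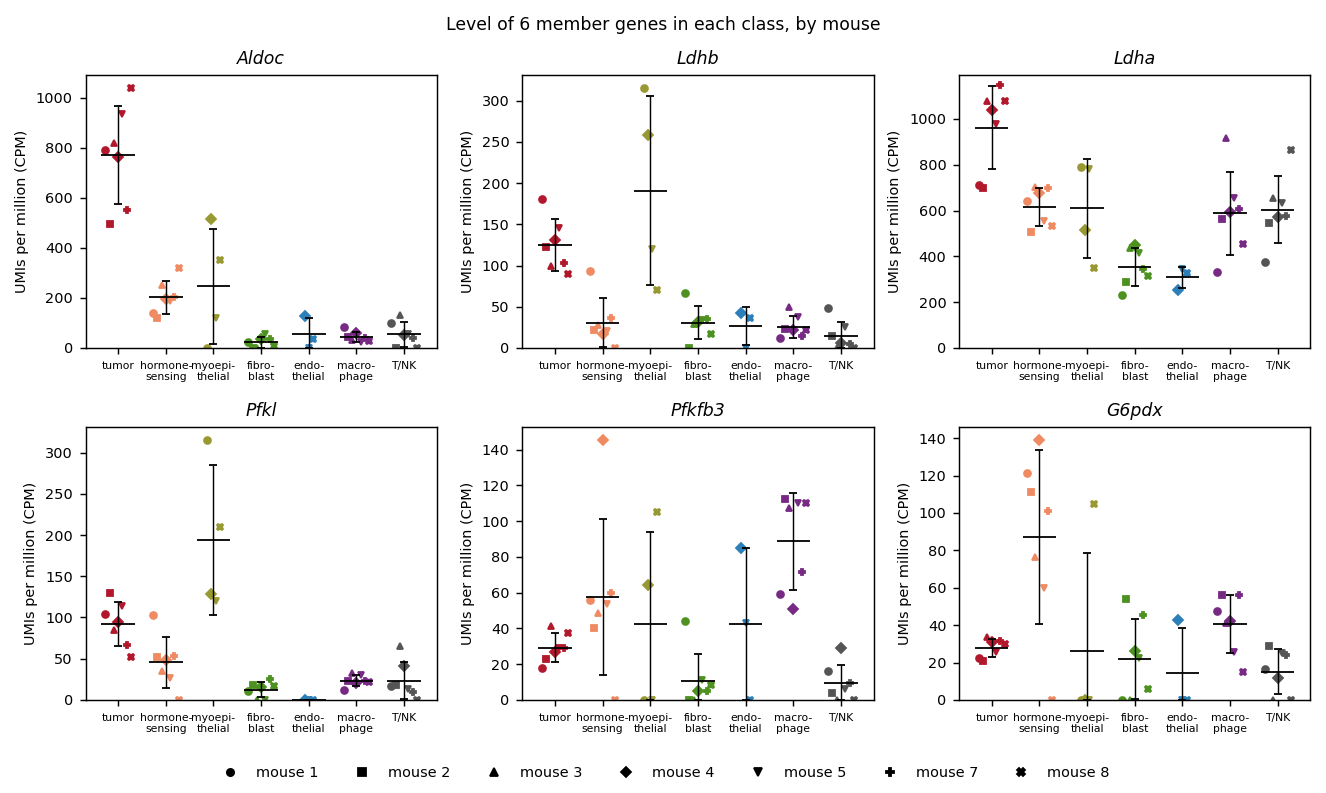
Level of 6 members in CPM by class, each marker being the sum of 1 mouse, each line the mean and each bar the SD over mice (drawn down to 0 where it would pass below it). *Aldoc* in tumor cells, at 494 to 1041 CPM, sits above the sums of the other classes apart from 1 myoepithelial sum, whereas *Ldhb* and *Pfkl* reach their highest mean in myoepithelial cells.

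*Tpi1* encodes triose phosphate isomerase, which interconverts the aldolase products. In hormone-sensing cells it ranged from 319.8 over 401 to 486 CPM, above all tumor sums, which ranged from 180.0 over 257 to 285 CPM. This rise of 0.68 ± 0.17 (adjusted p = 0.0019) held in 7 of 7 mice, with 0.87 in the CB series (adjusted p = 0.00174) and 0.45 in the WT series (adjusted p = 0.538). *Tpi1* was lower in fibroblasts (-0.89 ± 0.21, adjusted p = 0.00048) and in T/NK cells (-1.09 ± 0.22, adjusted p = 2.8e-05). The fibroblast difference did not pass in the CB series alone (-0.52, adjusted p = 0.162).

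Among the lower glycolytic enzymes, macrophages held more *Gapdh* (glyceraldehyde 3-phosphate dehydrogenase) and *Pgk1* (phosphoglycerate kinase, the first ATP-yielding step). *Gapdh* ranged from 130 over 398 to 638 CPM in macrophages and from 131 over 252 to 494 CPM in tumor cells, which overlapped between mice but differed within 6 of 7 mice. The paired difference was 0.69 ± 0.15 (adjusted p = 8.7e-05), with 0.85 in the CB series and 0.58 in the WT series (adjusted p = 0.0737). *Pgk1* ranged from 44.9 over 71.4 to 147 CPM in macrophages and from 22.7 over 46.5 to 165 CPM in tumor cells, a difference of 0.75 ± 0.24 (adjusted p = 0.0079), again in 6 of 7 mice. Without the composition scaling the *Pgk1* difference fell to 0.51 and was not called (adjusted p = 0.0625). Of the 50-base words near the 3′ ends of *Gapdh*, 63.2% also occurred in other genes, 197 of them, so its level may include or lose molecules of its copies.

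Enolase and pyruvate kinase had their lowest mean levels in fibroblasts. *Eno1*, the ubiquitous enolase, ranged from 33.0 over 67.8 to 120.5 CPM in fibroblasts and from 234 over 265 to 367 CPM in tumor cells, without overlap (-1.50 ± 0.23, adjusted p = 2.3e-07). *Pkm*, whose transcripts give the M1 and M2 forms of pyruvate kinase that these 3′ counts do not separate, averaged 189 ± 67.6 CPM in fibroblasts (SD, n = 7) and 700.0 ± 113 CPM in tumor cells (-1.47 ± 0.20, adjusted p = 5.0e-09). T/NK cells averaged 269 ± 64.8 CPM (-1.32 ± 0.20, adjusted p = 9.5e-08). *Eno1* shares 68.1% of its 3′-end words with 8 other genes, and its small T/NK difference (-0.48, adjusted p = 0.047) was kept under only 3 of 19 alternatives. *Gapdh* in fibroblasts (-0.43, adjusted p = 0.033) was lost without mouse 2, 4, 5, 7 or 8 (adjusted p from 0.0576 to 0.232).

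Lactate dehydrogenase is a tetramer of A subunits from *Ldha*, which predominates in muscle and tumors, and B subunits from *Ldhb*, which predominates in heart. *Ldha* ranged from 700.4 over 1039 to 1148 CPM in tumor cells, from 508 over 643 to 701 CPM in hormone-sensing cells and from 231 over 346 to 449 CPM in fibroblasts. The fibroblast levels did not overlap those of tumor cells, and the hormone-sensing levels touched them at their upper end, although within each of the 7 mice they were lower. The difference was -1.12 ± 0.16 in fibroblasts (adjusted p = 3.7e-08), -0.85 ± 0.16 in T/NK cells (adjusted p = 1.4e-05), -0.65 ± 0.15 in hormone-sensing cells (adjusted p = 0.00065) and -0.49 ± 0.15 in macrophages (adjusted p = 0.0050). In endothelial cells of mice 4, 5 and 8, *Ldha* was at 255, 343 and 327 CPM (-1.64 ± 0.30, adjusted p = 2.8e-05). The macrophage difference was not called without mouse 8 (-0.37, adjusted p = 0.0598). In the CB series alone the macrophage and hormone-sensing differences were -0.28 and -0.44 and were not called (adjusted p = 0.347 and 0.166).

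*Ldhb* was at 181, 122, 99.2, 131, 145, 104 and 89.9 CPM in the tumor cells of mice 1, 2, 3, 4, 5, 7 and 8. It ranged from 0 over 21.4 to 93.2 CPM in hormone-sensing cells, from 11.8 over 22.1 to 49.6 CPM in macrophages, from 0 over 31.3 to 66.0 CPM in fibroblasts and from 0 over 5.79 to 49.0 CPM in T/NK cells. Apart from the hormone-sensing sum of mouse 1, these levels were below every tumor level. The differences were -2.21 ± 0.26 in hormone-sensing cells, -1.97 ± 0.27 in macrophages, -1.62 ± 0.29 in fibroblasts and -3.10 ± 0.35 in T/NK cells, with adjusted p-values from 4.0e-11 to 5.6e-06, and each was called in both title series. Myoepithelial *Ldhb*, at 316, 258, 120 and 70.0 CPM in mice 1, 4, 5 and 8, did not differ from tumor cells by the test (0.64 ± 0.40, adjusted p = 0.32). Barcodes under 200 genes carried *Ldhb* at 22 to 70.6 CPM, and 1 other gene shared 29.2% of its 3′-end words.

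The sequences just upstream of the RefSeq starts of *Aldoc*, *Ldha*, *Ldhb* and *Pfkfb3* are shown as examples from the aldolase, lactate dehydrogenase and PFK-2/FBPase-2 families, whose levels are compared above and below. They are 250 bases each in GRCm38.p6, read 5′ to 3′ on the strand of the gene, from chr11:78322823-78323072 (plus) for *Aldoc*, chr7:46845554-46845803 (plus) for *Ldha*, chr6:142507958-142508207 (minus) for *Ldhb* and chr2:11553930-11554179 (minus) for *Pfkfb3*. Capitals mark the letters ACGTG on either strand, a form of the core to which hypoxia-inducible factor is known to bind. The other form, GCGTG, was neither marked nor counted. CACGTG, the E-box read by MYC, holds ACGTG on both strands.
Aldoc: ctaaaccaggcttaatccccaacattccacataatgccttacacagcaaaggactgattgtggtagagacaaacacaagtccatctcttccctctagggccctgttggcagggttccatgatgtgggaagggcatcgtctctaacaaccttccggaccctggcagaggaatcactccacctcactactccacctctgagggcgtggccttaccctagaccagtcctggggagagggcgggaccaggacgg
Ldha: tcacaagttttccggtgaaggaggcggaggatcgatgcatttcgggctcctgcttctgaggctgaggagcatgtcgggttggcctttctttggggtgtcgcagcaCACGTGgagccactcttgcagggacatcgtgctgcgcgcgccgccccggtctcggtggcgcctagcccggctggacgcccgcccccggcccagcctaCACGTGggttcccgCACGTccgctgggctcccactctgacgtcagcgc
Ldhb: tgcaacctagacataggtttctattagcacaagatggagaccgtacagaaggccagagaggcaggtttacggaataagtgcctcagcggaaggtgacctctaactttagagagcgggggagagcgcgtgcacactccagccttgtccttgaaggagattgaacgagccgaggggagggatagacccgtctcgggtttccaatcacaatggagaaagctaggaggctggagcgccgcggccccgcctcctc
Pfkfb3: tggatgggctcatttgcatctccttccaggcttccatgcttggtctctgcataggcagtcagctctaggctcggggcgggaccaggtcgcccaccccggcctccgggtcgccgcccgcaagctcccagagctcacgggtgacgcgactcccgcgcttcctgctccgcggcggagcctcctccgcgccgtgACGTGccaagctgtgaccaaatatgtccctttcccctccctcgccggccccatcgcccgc
The *Ldha* stretch held 5 matches to ACGTG, including both strands of 2 CACGTG words, and the *Pfkfb3* stretch held 1. Those of *Aldoc* and *Ldhb* held no ACGTG, though GCGTG can be read in both. RefSeq had promoters for 33 of the 34 members, 49 in all because some genes have several starts, and the other starts held 0 matches in *Aldoc* and *Ldha* and 2 in *Pfkfb3*. ACGTG occurred in 18 of these 49 stretches, from 14 genes, and in 16.6% of 32851 stretches of the same length over all genes. CACGTG occurred in 6 of the 49 and in 6.02% of all. A match is only a run of letters and was not tested for binding.

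Lactate leaves or enters cells through MCT1 (*Slc16a1*) and the lower-affinity exporter MCT4 (*Slc16a3*), and both were scarce. *Slc16a1* ranged from 8.28 over 15.4 to 39.3 CPM in tumor cells and from 10.4 over 58.0 to 78.7 CPM in fibroblasts, where it was higher within each of 7 mice (1.58 ± 0.39, adjusted p = 0.00060). In the CB series alone the difference was 1.63 (adjusted p = 0.0357), and in the WT series it did not pass the filter. *Slc16a1* was the 1 member called higher in fibroblasts. The filter keeps a gene whose level is high enough in a few sums of any class. *Slc16a1*, *Pfkfb3* and *G6pdx*, scarce in tumor cells, and *Pgk1*, low in most tumor sums, could thus enter the test through the class where they are high. Members scarce in all classes were left out, so calls of these genes as higher carry that limit. *Slc2a1*, with its highest mean in tumor cells, could likewise enter through tumor cells, so its calls as lower carry the limit too. In hormone-sensing cells *Slc16a1* was lower (-1.32 ± 0.47, adjusted p = 0.033), with 11 UMIs. That call was lost without mouse 3, 4, 5 or 8 (adjusted p from 0.0526 to 0.148). *Slc16a3* was not tested. Its level in macrophages was 35.5, 44.9, 66.1, 47.5, 59.2, 15.0 and 44.0 CPM in mice 1, 2, 3, 4, 5, 7 and 8, against 0 to 3.41 CPM in tumor cells, with 67 and 6 UMIs. The macrophage levels exceeded the tumor levels in every mouse, in a gene left out by the filter. In barcodes under 200 genes it stood at 16.1 to 41.5 CPM.

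**Figure D3:**
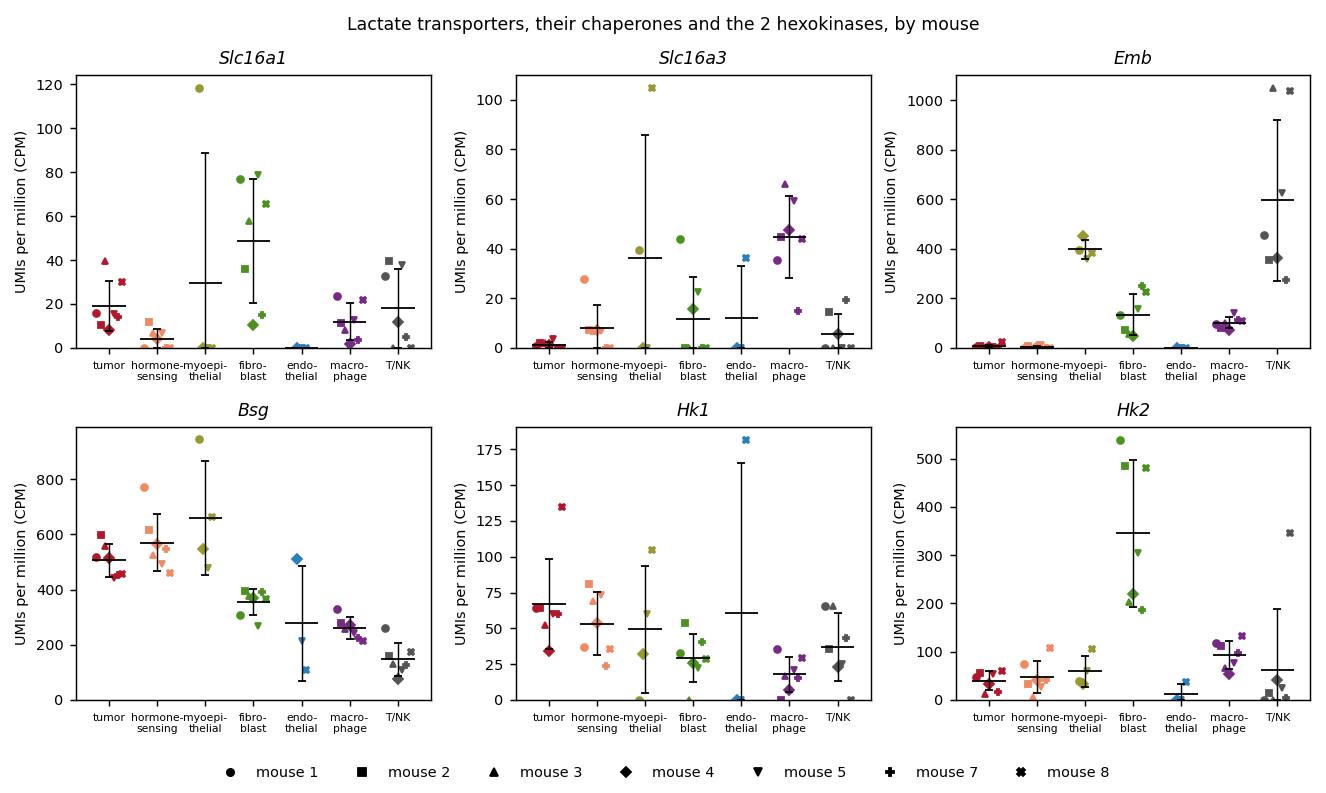
Level of the lactate transporters *Slc16a1* and *Slc16a3*, of their chaperones *Emb* and *Bsg* and of 2 hexokinases by class, in CPM, with the sum of each mouse as a marker, the mean as a line and the SD as a bar (stopped at 0). *Slc16a3* reaches 15.0 to 66.1 CPM in macrophages, *Emb* at least 276 CPM in T/NK and 360.1 CPM in myoepithelial cells, and *Hk2* 186 to 539 CPM in fibroblasts.

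PFK-2/FBPase-2 enzymes set the level of fructose 2,6-bisphosphate, the strongest activator of phosphofructokinase, and the *Pfkfb3* isozyme is the most kinase-active. *Pfkfb3* ranged from 50.9 over 107 to 112 CPM in macrophages, from 17.6 over 29.0 to 41.2 CPM in tumor cells and from 0 over 6.32 to 28.9 CPM in T/NK cells. The macrophage levels lay above every tumor level. The macrophage difference from tumor cells was 1.76 ± 0.30 (adjusted p = 1.4e-06), with 1.70 in the CB series and 1.85 in the WT series. The T/NK levels reached into the tumor range from below. In hormone-sensing cells *Pfkfb3* was at 55.9, 40.3, 48.6, 146, 53.4, 59.6 and 0 CPM in mice 1, 2, 3, 4, 5, 7 and 8, a difference of 1.31 ± 0.30 (adjusted p = 0.00047). That call rested on mouse 4, without which the rise was 0.71 and did not pass (adjusted p = 0.166). In T/NK cells *Pfkfb3* was lower (-1.32 ± 0.52, adjusted p = 0.029), a call lost without mouse 2, 3, 5, 7 or 8 (adjusted p from 0.0563 to 0.168). *Pfkfb4* had 38 of its 64 UMIs in macrophages (11.8 to 41.3 CPM, against 0 to 6.20 CPM in tumor cells), and *Pfkfb2* had 27 of its 53 in tumor cells.

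The kinases that switch off pyruvate dehydrogenase stayed below the filter. *Pdk1*, the hypoxia-induced kinase, had 298 UMIs and ranged from 16.8 over 35.1 to 56.3 CPM in tumor cells, from 0 to 65.4 CPM in T/NK cells and from 0 to 29.0 CPM in fibroblasts. *Pdk2* had 134 UMIs, most of them in tumor cells, where it ranged from 8.27 to 30.7 CPM, against 2 in macrophages and 1 in T/NK cells. *Pdk3* had 190 UMIs and *Pdk4*, the kinase induced by fasting, 3. No UMI of *Pdk4* was seen outside tumor cells, which for hormone-sensing cells allows a level of up to 1.52 CPM by the limit of 3 counts.

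Of the pyruvate dehydrogenase complex, the 3 members *Pdha1*, *Pdhb* and *Dlat* were lower in macrophages, while *Dld*, the E3 subunit and no member, did not pass (-0.30 ± 0.26, adjusted p = 0.35). *Pdha1*, the X-linked E1 alpha subunit, ranged from 0 over 33.7 to 58.7 CPM in macrophages and from 95.0 over 124 to 140.0 CPM in tumor cells, without overlap. It differed by -1.58 ± 0.24 (adjusted p = 1.8e-07), and in both title series. *Pdhb*, the E1 beta subunit, was lower by -0.58 ± 0.21 (adjusted p = 0.019), and *Dlat*, the E2 transacetylase, by -0.81 ± 0.25 (adjusted p = 0.0044). Neither passed in the CB series alone (adjusted p = 0.0671 and 0.0573) or in the WT series alone (0.517 and 0.296). The *Pdhb* call was lost without mouse 1 (adjusted p = 0.0828) or mouse 4 (0.0575). In T/NK cells *Pdha1* (-0.82 ± 0.24, adjusted p = 0.0032) and *Dlat* (-0.83 ± 0.27, adjusted p = 0.0085) were lower, the latter not without mouse 1 or 2 (adjusted p = 0.0885 and 0.11). This *Dlat* difference passed in neither title series alone (adjusted p = 0.126 and 0.318), and that of *Pdha1* not in the CB series (-0.53, adjusted p = 0.179). In fibroblasts *Pdhb* was lower (-0.95 ± 0.26, adjusted p = 0.0020), though not in the WT series alone (-0.79, adjusted p = 0.153). It was lower in hormone-sensing cells too (-0.56 ± 0.20, adjusted p = 0.029). That call was lost without mouse 1, 2, 3 or 7 (adjusted p from 0.0592 to 0.103) and in each title series alone (0.148 and 0.467). Endothelial *Pdha1* had UMIs in 1 of 3 mice (-2.24 ± 0.80, adjusted p = 0.044, lost without mouse 1, 2, 3, 4, 7 or 8, with adjusted p from 0.054 to 0.285).

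Of the 4 pentose phosphate enzymes tested, 1 was called higher than in tumor cells in hormone-sensing cells (13.5% of all genes) and 2 in macrophages (24.6%), while 2 were called lower in fibroblasts (17.3%), 2 in endothelial cells (6.24%) and 3 in T/NK cells (32.3%). These counts are too small to read as a pattern of the pathway. *G6pdx*, the X-linked glucose-6-phosphate dehydrogenase that opens the pathway, was at 121, 112, 76.3, 139, 60.1, 101.3 and 0 CPM in hormone-sensing cells of mice 1, 2, 3, 4, 5, 7 and 8, while tumor cells ranged from 20.7 over 30 to 33.7 CPM. Every hormone-sensing sum but that of mouse 8, which had no UMI of the gene in 28145, was above all tumor sums. The difference was 1.80 ± 0.26 (adjusted p = 1.9e-07), with 2.07 in the CB series and 1.17 in the WT series, where it did not pass (adjusted p = 0.236). In macrophages *G6pdx* ranged from 14.7 over 42.4 to 56.4 CPM (0.79 ± 0.31, adjusted p = 0.030), a call lost without mouse 2, 4 or 7 (adjusted p from 0.0712 to 0.108).

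*Pgd*, the second NADPH-yielding dehydrogenase, ranged from 80.7 over 123 to 201 CPM in macrophages and from 67.4 over 107 to 127 CPM in tumor cells, ranges that overlapped, and was higher within each of 7 mice (0.59 ± 0.18, adjusted p = 0.0057). It was lower in T/NK cells (-1.0 ± 0.25, adjusted p = 0.00051), by -1.24 in the CB series and -0.52 in the WT series, where it did not pass (adjusted p = 0.348). With at least 500 genes per cell this call was lost too (adjusted p = 0.0635). Of the non-oxidative enzymes, transaldolase (*Taldo1*) ranged from 48.6 over 90.4 to 203 CPM in fibroblasts and from 255 over 409 to 478 CPM in tumor cells, without overlap (-1.84 ± 0.21, adjusted p = 7.5e-11). Transketolase (*Tkt*) was lower in fibroblasts by -1.32 ± 0.24 (adjusted p = 6.1e-06). Both were lower in T/NK cells as well, *Taldo1* by -1.08 ± 0.19 (adjusted p = 3.7e-06) and *Tkt* by -1.16 ± 0.23 (adjusted p = 2.0e-05). In endothelial cells *Tkt* (-1.69, adjusted p = 0.047), *Taldo1* (-1.22, adjusted p = 0.027) and *Aldoa* (-1.08, adjusted p = 0.034) were each lost without at least 3 of the mice, including mice 5, 7 and 8 (adjusted p from 0.0595 to 0.373).

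The isoform make-up of each family was taken as shares of the family's UMIs, which removes the class total from the comparison. Aldolase C made up 57.3, 39.8, 50.2, 47.7, 63.8, 43.1 and 44.7% of aldolase UMIs in tumor cells of mice 1, 2, 3, 4, 5, 7 and 8. In macrophages the share was 5 to 17.9% (mean 9.05%, against 49.5% in tumor cells, lower in 7 of 7 mice), and in fibroblasts 0 to 13.9% (7.21% against 51.1%, 6 of 6 mice with at least 10 UMIs). In hormone-sensing cells it was 14.0 to 45.0% (24.9% against 49.5%, 6 of 7 mice). These shares were below the tumor range except in the hormone-sensing cells of mouse 8.

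The share of *Ldhb* in lactate dehydrogenase UMIs was 20.2, 14.8, 8.43, 11.2, 12.9, 8.28 and 7.69% in tumor cells of the same mice. It averaged 4.47% in hormone-sensing cells and 4.08% in macrophages, against 11.9% in tumor cells, lower in 7 of 7 mice each, and 3.30% in T/NK cells against 12.6% (6 of 6 mice). All 6 of these shares passed an exact two-sided sign-flip test over mice, with an adjusted p of 0.0469 over the 9 shares tested. With 6 or 7 mice the smallest p such a test can give is 0.0312 or 0.0156, and 0 of the 6 calls were left without mouse 1, 3, 4, 5 or 7 and 0 under the stricter marker gate, while 4 were left without mouse 2 and 5 without mouse 8. The *Ldhb* share in fibroblasts (8.13% against 11.9%, adjusted p = 0.105) and the *Eno1* shares in hormone-sensing cells (95.2% against 98.8%, adjusted p = 0.188) and macrophages (95.6% against 99.0%, adjusted p = 0.0804) did not pass.

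Other families had too few UMIs per mouse for a test and are given with exact Clopper-Pearson intervals at 95%, which cover counting error over the pooled UMIs only. *Pfkp* made up 31.1% of phosphofructokinase UMIs in tumor cells (interval 28.0 to 34.4%), 71.1% in fibroblasts (60.6 to 80.2%), 57.7% in macrophages (47.3 to 67.7%) and 76.5% in T/NK cells (66.0 to 85.0%). Over single mice with at least 10 UMIs of the family, the share was 24.1 to 65.4% in tumor cells of 7 mice and overlapped with 60.0 to 90.0% in fibroblasts, 38.5 to 81.3% in macrophages and 61.1 to 87.5% in T/NK cells, of 4 mice each. In mouse 7 the macrophage share (38.5%) was below that of its tumor cells (42.2%). *Slc16a3* made up 84.8% of monocarboxylate transporter UMIs in macrophages (75.0 to 91.9%) and 6.67% in tumor cells (2.49 to 13.9%). *Pfkfb4* made up 23.6% of its family in macrophages (17.3 to 30.9%) and 5.08% in tumor cells (2.35 to 9.43%), with shares of single mice that overlapped (13.3 to 34.4% and 0 to 16.7%, 6 mice each). *Pdk2* made up 26.0% of its family in tumor cells (21.7 to 30.7%) and 3.57% in macrophages (0.435 to 12.3%). *Eno2*, the neuronal enolase, gave 13 of 109 enolase UMIs in fibroblasts (11.9%, 6.51 to 19.5%) and 4 of 1391 in tumor cells.

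**Figure D4:**
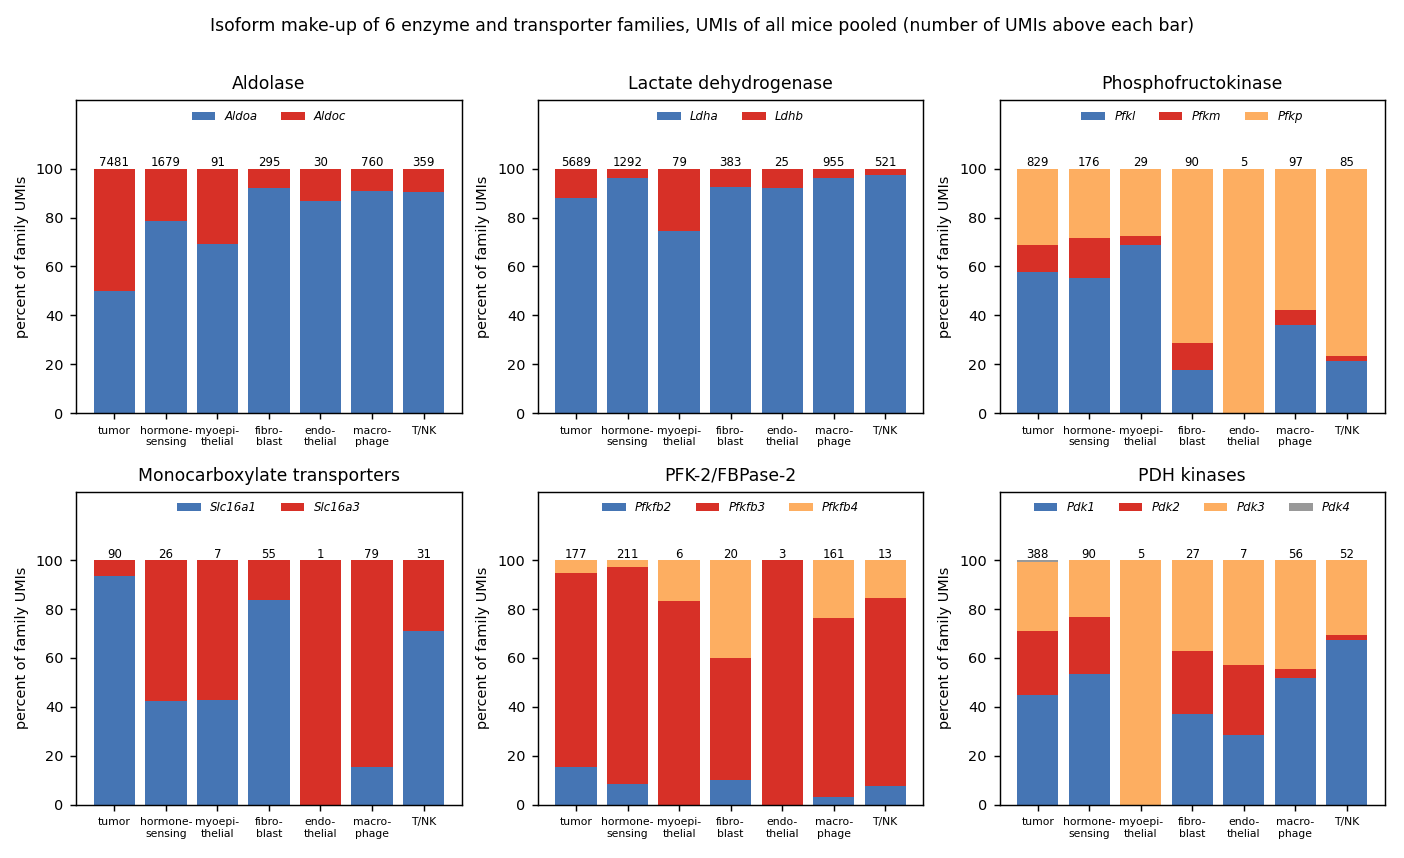
Make-up of 6 families as the percent of the family's UMIs from each gene, all mice pooled, by class, with the number of UMIs above each bar. *Aldoc* fills 49.9% of the tumor bar and at most 30.8% of any other, and *Pfkp* makes up most of the fibroblast, macrophage and T/NK bars, while bars over fewer than 30 UMIs are imprecise.

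Summed over all 34 members, tumor cells held 5796 ± 768 CPM (SD, n = 7), hormone-sensing cells 4741 ± 451, macrophages 4016 ± 623, T/NK cells 3178 ± 617 and fibroblasts 1994 ± 335 CPM. The sum was lower than that of tumor cells within 7 of 7 mice in fibroblasts, macrophages and T/NK cells, and in 5 of 7 in hormone-sensing cells. The steps did not follow each other. Relative to tumor cells (log2 ratio with 10 CPM added), aldolase in macrophages was at -1.56 ± 0.67 and the sum of *Pdha1*, *Pdhb* and *Dlat* at -1.28 ± 0.57, but the pentose phosphate enzymes were at 0.11 ± 0.25. In fibroblasts aldolase was at -2.40 ± 0.72, pyruvate kinase at -1.93 ± 0.63 and the pentose phosphate enzymes at -1.58 ± 0.29, whereas the monocarboxylate transporters were at 1.08 ± 0.80 and above tumor cells in 7 of 7 mice. These sums are descriptions of chosen genes and carry no test.

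**Figure D5:**
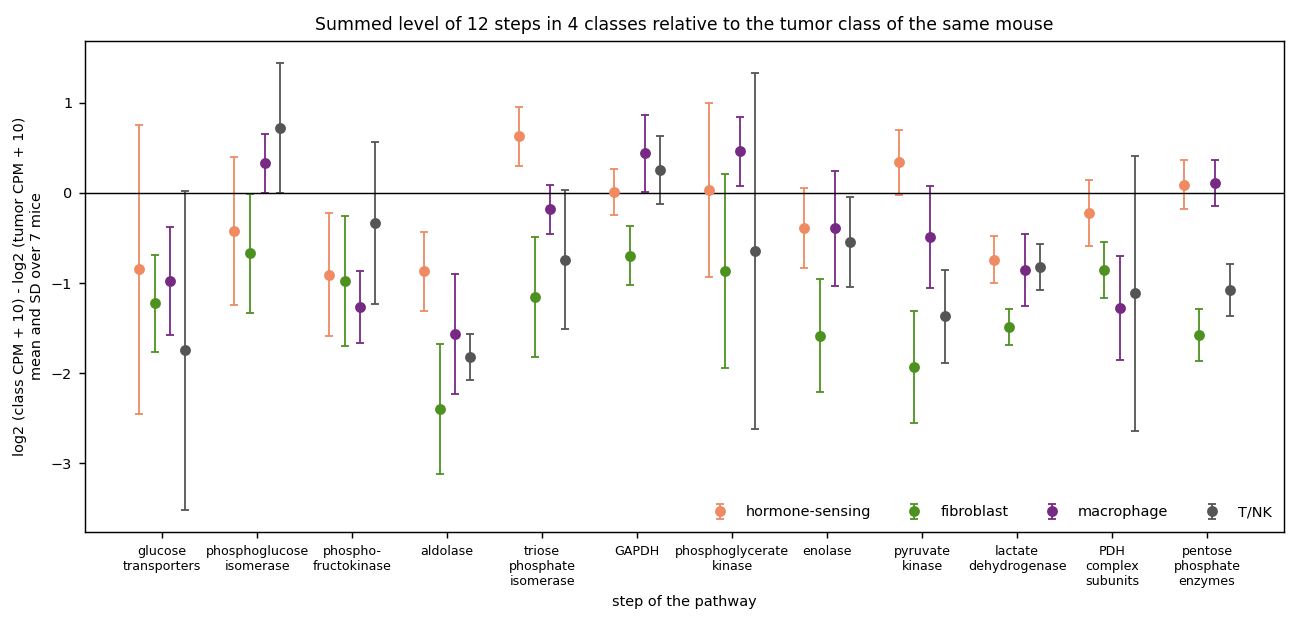
Summed level of 12 of the steps in 4 classes relative to the tumor cells of the same mouse, as the log2 ratio with 10 CPM added, with the mean as a point and the SD over 7 mice as a bar. Fibroblasts are below 0 at each of the 12 steps drawn, with aldolase lowest at -2.40, and hormone-sensing cells are at 0.63 for triose phosphate isomerase, while phosphoglycerate mutase, the PFK-2/FBPase-2 enzymes, the pyruvate dehydrogenase kinases and the monocarboxylate transporters (1.08 in fibroblasts) are not drawn.

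The immune classes were also compared with each other, where 10 members were lower and 1 higher in T/NK cells than in macrophages (40.0% of all genes called, 24.7% lower and 15.3% higher), with a median of -0.63 over the members beside -0.15 over all genes. *Pfkfb3* differed most (-3.08 ± 0.49, adjusted p = 4.9e-07). The 4 pentose phosphate members were lower, *Pgd* by -1.59 ± 0.26 (adjusted p = 8.9e-07), *Taldo1* by -1.43 ± 0.20 (adjusted p = 2.8e-08), *Tkt* by -1.24 ± 0.24 (adjusted p = 3.1e-05) and *G6pdx* by -1.28 ± 0.43 (adjusted p = 0.014). *G6pdx* passed in neither title series alone (adjusted p = 0.0613 and 0.351), and *Tkt* not in the WT series (0.0575). The 2 other pentose phosphate genes tested were not called, and no pattern of the pathway is read from these genes. *Pkm*, *Tpi1*, *Aldoa*, *Gapdh* and *Ldhb* were lower too, by -1.10, -1.14, -0.74, -0.64 and -1.14, in 6 of 7 mice each except *Gapdh*, which was lower in 4 and higher in 3. Without the composition scaling *Gapdh* (-0.30, adjusted p = 0.161), *Aldoa* (-0.42, adjusted p = 0.127), *Ldhb* (-0.82, adjusted p = 0.160) and *G6pdx* (-0.95, adjusted p = 0.0690) were not called. *Gapdh* was also not called in either title series alone (adjusted p = 0.165 and 0.0724) or without the mouse block (0.0821). *Pdha1* was the member that was higher (0.76 ± 0.31, adjusted p = 0.045), though not without mouse 2, 4 or 7 (adjusted p from 0.0925 to 0.158). It stood at 1.36 in the CB series but at 0.11 in the WT series (adjusted p = 0.928), and was not called without the mouse block (0.0634). *G6pdx* was lost without mouse 4 or 7 (adjusted p = 0.0781 and 0.0501), *Aldoa* without mouse 2 (0.0614) and *Ldhb* without any mouse but mouse 1 (adjusted p from 0.0819 to 0.168).

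Of 66 other genes of these pathways, 26 were tested. In fibroblasts 9 of them were higher and 8 lower (46.0% of all genes called), in macrophages 5 higher and 12 lower (51.6%), in T/NK cells 3 higher and 11 lower (54.0%) and in hormone-sensing cells 6 higher and 3 lower (25.4%). Myoepithelial cells had 3 higher and 0 lower (15.4%), endothelial cells 2 higher and 4 lower (17.6%), and T/NK cells against macrophages 1 higher and 5 lower (40.0%). The T/NK count is at the share of all genes, and nothing is read from the others. *Hk2*, the hexokinase that the study deletes in other mice, had UMIs in the tumor cells of all 7 controls (11.2 over 47.3 to 59.9 CPM) and was higher in fibroblasts, at 186 over 304 to 539 CPM (3.40 ± 0.22, adjusted p = 3.0e-19), with no overlap. It was higher in macrophages too (1.51 ± 0.25, adjusted p = 7.7e-07, 7 of 7 mice). *Hk1*, the other hexokinase tested, was lower in fibroblasts (-0.79 ± 0.34, adjusted p = 0.049), in macrophages (-1.67 ± 0.34, adjusted p = 3.0e-05) and in T/NK cells (-0.76 ± 0.33, adjusted p = 0.043), in 7, 7 and 5 of 7 mice. *Emb*, the embigin chaperone of monocarboxylate transporters, was 1.43 to 22.5 CPM in tumor cells and 276 to 1051 CPM in T/NK cells (6.71 ± 0.33, adjusted p = 7.7e-24), 47.0 to 251 CPM in fibroblasts (5.43 ± 0.37, adjusted p = 1.7e-18) and 360.1 to 451 CPM in myoepithelial cells (6.59 ± 0.53, adjusted p = 1.1e-14). In macrophages it was higher as well, at 72.9 to 140 CPM (4.82 ± 0.36, adjusted p = 9.8e-17). *Bsg*, the basigin chaperone, went the other way, at 444 to 599 CPM in tumor cells, 75.3 to 262 CPM in T/NK cells (-2.0 ± 0.19, adjusted p = 5.6e-13) and 213 to 332 CPM in macrophages (-0.73 ± 0.16, adjusted p = 0.00012). It passed no other comparison with tumor cells. *Hk2* and *Emb*, low in tumor cells, could enter the test through the classes where they are high, so their calls as higher carry the limit of the filter.

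Of 10 hypoxia-response genes outside glycolysis that were tested, 5 were higher and 3 lower in fibroblasts, 2 higher and 5 lower in macrophages and again in T/NK cells, and 1 higher and 3 lower in hormone-sensing cells. The myoepithelial count was 2 higher and 0 lower, the endothelial 2 and 1, and that of T/NK cells against macrophages 0 and 2, with the shares of all genes as given for the 26 genes. *Car9*, the cell-surface carbonic anhydrase, was lower than in tumor cells in fibroblasts (-4.32 ± 0.62), macrophages (-2.61 ± 0.40), T/NK cells (-3.14 ± 0.51) and hormone-sensing cells (-1.26 ± 0.31), with adjusted p-values from 4.4e-08 to 0.0014. *P4ha1*, a collagen prolyl hydroxylase subunit, was higher in fibroblasts (4.03 ± 0.31, adjusted p = 9.0e-17) and macrophages (3.14 ± 0.31, adjusted p = 5.7e-13). Of 5 genes of the glycerol phosphate and malate shuttles, 3 were higher and 0 lower in hormone-sensing cells (13.5% of all genes higher, 11.9% lower) and 1 higher and 2 lower in macrophages (24.6% and 26.9%). None was higher in the other comparisons, where 3 were lower in fibroblasts (17.3% of all genes), 2 in endothelial cells (6.24%), 2 in T/NK cells (32.3%), 0 in myoepithelial cells (4.67%) and 1 in T/NK cells against macrophages (24.7%). *Got1*, the cytosolic aminotransferase of the malate-aspartate shuttle, was higher in macrophages (2.84 ± 0.28, adjusted p = 1.2e-12) and hormone-sensing cells (1.81 ± 0.30, adjusted p = 3.2e-06). For *Got1* and *P4ha1*, calls as higher may carry the limit of the filter too.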

How the data were processed

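Single-cell 3′ Drop-seq libraries of primary tumors from 7 MMTV-PyMT; HK2 f/f mice were examined. The authors deposited 1 matrix per mouse of raw counts, that is UMIs per gene and barcode, not normalized. By the study's methods the reads were aligned to mm10 with the PyMT sequence added, the submitters' processing notes name STAR and FastQC but list GRCh37.p13 and hg19, and the counting program and annotation are not given in the sources used here.

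Here, mitochondrial genes were left out and barcodes with 200 to 6000 genes were kept. A class other than tumor needed at least 3 markers of its list, at least 2 of them (1 for hormone-sensing cells) outside 13 broadly detected markers, and a lead of 2 over every other list but that of tumor cells, counted without the broad markers. Tumor markers could exceed those of the class by at most 2, except in hormone-sensing cells, where they were not limited. Tumor cells needed a UMI of PyMT, 3 further tumor markers and at most 1 marker of any other list, again without the broad markers except for those of hormone-sensing cells. The gate was set after the data were seen. Cells that met the rules of several classes were left out, but markers of other lists remained in kept cells, at a median of 9 tumor markers beside 4 of their own in hormone-sensing cells. No doublet caller was run, and B cells, neutrophils, pericytes and red cells formed no class. UMIs were summed per mouse and class where at least 10 cells were present. edgeR 4.0.16 (R 4.3.3) was fitted by quasi-likelihood over all 7 classes with mouse as a block, TMM factors from 837 genes with a mean of at least 200 CPM, and filterByExpr, and p-values were adjusted by Benjamini-Hochberg over 5977 genes. The design had foreseen TMM over all genes. That was replaced because it was biased in shallow sums of simulated counts, and it is given as an alternative chosen after seeing the data. In the simulation the class under test had the tumor profile of its mouse, with 200 genes changed. It held no difference in composition like that between the real classes, so it cannot say which scaling suits them. Its recovery rates, given below, hold for that setting only. Class and tumor sums came from the same animal, so mouse numbers pair them, and their deviations correlated at 0.109 to 0.476.

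Isoform shares with at least 10 family UMIs in at least 6 mice were compared by an exact two-sided sign-flip test, adjusted over 9 shares. Any UMI count has counting error, to which the intervals and limits are confined. On simulated counts the fit recovered 79 to 90 of 100 changes of 4-fold in hormone-sensing cells, fibroblasts, macrophages and T/NK cells, but 36 in myoepithelial and 35 in endothelial cells. Of 100 changes of 2-fold it recovered 63 in hormone-sensing cells, 58 in fibroblasts, 55 in macrophages, 43 in T/NK cells, 11 in myoepithelial cells and 3 in endothelial cells. Whether the mice came from separate litters or batches is not stated, and p-values cover the spread between them. DESeq2 1.42.0, numpy 2.4.6, scipy 1.17.1, pandas 2.3.3 and Python 3.11.15 were used for alternatives and summaries. Gene positions are from GENCODE on GRCm38, and promoters from RefSeq on GRCm38.p6.

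All 34 members could be named. Levels by mouse were printed for families with several isoforms and for the up to 5 called members with the largest rise and the largest fall per comparison. *Dld*, *Hk1* and *Bsg*, which are no members, were named after their values were seen. Members and gene lists were chosen with earlier results of these data known. In all, 19 alternative settings were run.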

Additional observations from a re-analysis of the deposited data

Results flagged for a closer look

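Of 110 groups of 7 mice examined, 16 held a level far from the other 6 by Dixon's criterion at its 95% critical value. Chance alone meets it in about 1 of 20 groups of normally spread values of equal precision. The sums here differ in depth, so that rate is no measure for them. The level of mouse 8 stood apart most often. In its tumor cells *Pfkp* was high at 127 CPM, *Aldoa* at 1289 CPM and *Pgk1* at 165 CPM, while *Pdhb* was low at 52.4 CPM. In its T/NK cells, a sum of 11 cells and 5791 UMIs, *Gpi1* was at 863 CPM and *Pfkp* and *Tpi1* at 518 CPM each. In its hormone-sensing cells, a sum of 16 cells and 28145 UMIs, *Gpi1* and *Pdha1* were both low at 35.5 CPM and *Pdhb* had 0 CPM.

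Other mice gave the remaining 6. *Tpi1* in tumor cells was low in mouse 4 at 180.0 CPM. *Pkm* in fibroblasts was low in mouse 2 at 53.9 CPM, and *Pfkfb3* in fibroblasts was high in mouse 1 at 44.0 CPM. In hormone-sensing cells *Ldhb* was high in mouse 1 at 93.2 CPM, *Pfkfb3* was high in mouse 4 at 146 CPM, and *Taldo1* was low in mouse 5 at 307 CPM.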

How the results depend on the processing

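Of the 75 called differences of members, 32 remained called under each of the 19 settings in which they were tested, 52 without each mouse in turn and 61 under the other 3 scalings, and none reversed. Within the CB series alone 28 calls were lost, and within the WT series alone 30.

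In hormone-sensing cells 9 members were called, 14 with assignment by likelihood and 3 in the WT series. In myoepithelial cells 3 were called, 5 with assignment by likelihood or with TMM over all genes, 1 with at least 500 genes per cell, at least 20 cells per sum, the WT series or a fit of the 2 classes only, and 0 in the CB series. In endothelial cells 7 were called, 4 with the stricter gate, without the filter on low counts or in the WT series, 3 with at least 500 genes or with the 2 classes only, and 0 in the CB series. In macrophages 15 were called, 8 in the WT series. In T/NK cells against macrophages 11 were called, 7 with the 2 classes only, and 5 in the WT series. Of the isoform shares 6 were called, 0 with the stricter gate and 3 with at least 500 genes. The causes were not tested, but single series, stricter gates and fewer classes hold fewer samples or UMIs. Members tested also changed, from 22 in the main fit to 25 with assignment by likelihood and 34 without the filter. The T/NK and macrophage fit of the 2 classes only tested 11. Shares of all genes called are not set beside the counts here and in the next paragraph. Whether members moved more than other genes was not tested.

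Leaving out 1 mouse gave 3 to 6 calls in endothelial cells, 7 to 8 in hormone-sensing cells, 12 to 15 in fibroblasts and in macrophages, 14 throughout in T/NK cells, 2 to 3 in myoepithelial cells, 8 to 12 in T/NK cells against macrophages, and 0 to 5 isoform shares. Without the replicate block 13 calls were lost, and the count was 7 in hormone-sensing cells, 2 in myoepithelial cells, 13 in fibroblasts, 8 in endothelial cells, 12 in macrophages, 14 in T/NK cells and 7 in T/NK cells against macrophages.

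Over all genes, the median log2 fold change without the composition scaling moved from 0.11 to -0.21 in fibroblasts, from -0.12 to -0.36 in macrophages and from -0.15 to 0.16 in T/NK cells against macrophages. The share of calls that were higher moved from 62.3 to 42.9%, from 47.8 to 35% and from 38.3 to 58.0%. With TMM over all genes it moved from 69.6 to 42.7% in myoepithelial and from 64.4 to 40.7% in endothelial cells, with medians of -0.40 and -0.52, and with DESeq2 from 53.2 to 42.8% in hormone-sensing and from 62.3 to 49.2% in fibroblasts. The 99 and 91 cells of the endothelial and myoepithelial classes limit what could be called there.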

Other observations

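*Gapdh* in tumor cells stood at 131, 145, 217 and 252 CPM in mice 1 to 4 of the CB series and at 306, 437 and 494 CPM in mice 5, 7 and 8 of the WT series, which did not overlap. The comparison was noticed in the data and was not tested. Among the 22 tested members, the class with the highest mean level was the myoepithelial class for 6, tumor cells for 5 (*Slc2a1*, *Aldoa*, *Aldoc*, *Ldha* and *Tkt*), hormone-sensing cells for 4 (*Tpi1*, *Pkm*, *Dlat* and *G6pdx*), macrophages for 4 (*Gapdh*, *Pfkfb3*, *Pgd* and *Taldo1*) and T/NK cells, fibroblasts and endothelial cells for 1 each (*Pfkp*, *Slc16a1* and *Pdhb*). These orders of means carry no test, and the myoepithelial means rest on 4 mice.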
